A study of Sus scrofa with 2 samples.

Results

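VEGFA, VEGFB, ADM and HIF1A are 4 of the 26828 gene names in the feature lists of 2 single-cell RNA libraries of pig endometrium, and each was matched by its symbol to exactly 1 feature. VEGFA and VEGFB are secreted vascular endothelial growth factors, ADM encodes the peptide hormone adrenomedullin, and HIF1A encodes the oxygen-regulated subunit of a transcription factor. The EL library (embryo loss) came from a Yorkshire sow of 3 years with an earlier abortion and then 3 inseminations that did not lead to pregnancy, and her stage at sampling is not given. The EIS library (successful embryo implantation) came from a second Yorkshire sow of 3 years at day 30 after insemination. Tissue of both uterine horns entered each sample. Each group is thus 1 sow and 1 library, so no comparison between EL and EIS has a replicate check, no p-value was computed, and sow, reproductive outcome, stage and library cannot be told apart. All intervals are 95% intervals for counting error only.

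VEGFA drives the growth and permeability of blood vessels through the receptors FLT1 and KDR, with the neuropilins NRP1 and NRP2 as co-receptors, whereas VEGFB binds FLT1 and has been tied more to fatty acid handling and cell survival than to sprouting. Adrenomedullin widens vessels and keeps endothelium tight through the receptor CALCRL, which needs a partner of the RAMP family. HIF1A protein is broken down while oxygen is plentiful, so its mRNA does not measure its activity. VEGFA and ADM are classic genes switched on by it, beside genes of glycolysis and mitophagy. In the pig, whose placenta does not invade the uterine wall, the vessels beneath the uterine epithelium grow as the conceptus attaches.

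The files held 10936 barcodes with 43302286 unique molecular identifiers (UMIs) for EL and 8848 barcodes with 36069473 UMIs for EIS, of which 9864 and 8067 cells were kept. The median kept cell had 2341.5 UMIs in EL and 2246 UMIs in EIS, and 27 barcode sequences occurred in both libraries. Cells were assigned to a class if at least 3 of the class's marker genes were detected. This left 40.2% of EL cells and 31.3% of EIS cells without a class. These ungated cells were shallow, with a median of 1019 UMIs in EL and 1023 in EIS. The epithelial gate held 3658 EL cells and 1123 EIS cells, and the ciliated epithelial gate 1926 EL cells and 442 EIS cells. The T or NK gate held 145 EL cells and 285 EIS cells. Stromal cells numbered 52 in EL and 1788 in EIS, cells with trophoblast markers 0 in EL and 1326 in EIS, and vascular endothelial cells 13 in EL and 198 in EIS. Only the epithelial, ciliated and T or NK gates had 100 cells in both libraries, and only there were EL and EIS set against each other.

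Levels are given as CPM, a gene's UMIs in a class per 1000000 UMIs of all genes in that class. The epithelial gate rested on the 4 of its 10 listed markers that carry a symbol in the files, and 2673 of its EL cells and 915 of its EIS cells had just the 3 that the gate asks for. Epithelial, ciliated and trophoblast markers did not count as another lineage to one another. At least 3 markers of another lineage were found in 0.793% of EL epithelial cells and in 427 of the 1123 EIS epithelial cells. The figure was 0.415% of EL and 39.8% of EIS ciliated cells. All 8 measured stromal markers had UMIs in the epithelial gate of both libraries, and their summed level was 182 CPM in EL and 1271 CPM in EIS. In the ciliated gate that sum was 36.6 in EL, where PDGFRA was at 0, and 2671 in EIS. The part of such foreign RNA in the results was not tested, but each EL over EIS ratio was recomputed after cells with 3 markers of another lineage were left out. That step left out no cell for its trophoblast markers. Their summed level was 203 CPM in EL and 312 CPM in EIS epithelial cells, and 136 and 1148 CPM in ciliated cells. Since 9 genes above 1% each took up 53.3% of the EIS epithelial UMIs, against 1.00% for the 1 such gene in EL, the median gene stood 1.18 log2 units higher in EL on this scale. SLPI, a secreted protease inhibitor, alone made up 0.00129% of EL and 29.2% of EIS epithelial UMIs. Epithelial ratios are therefore also given relative to the median gene.

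VEGFA was lower in EL than in EIS in both epithelial gates. In the epithelial gate it had 862 UMIs in EL, or 37.7 CPM (35.2 to 40.3), and 728 UMIs in EIS, or 73.5 CPM (68.3 to 79.0). The EL level was 1.95-fold lower (1.76 to 2.15), and 4.43-fold lower relative to the median gene. In ciliated cells VEGFA reached 26.4 CPM in EL (23.1 to 29.9) and 75.0 CPM in EIS (65.4 to 85.7), 2.84-fold lower in EL (2.36 to 3.43). Free RNA can give UMIs in cells that do not express a gene, so cells were also thinned to 1000 UMIs each and set against T or NK cells. A VEGFA UMI was then found in 2.13% of EL epithelial cells (1.68 to 2.66) and 2.50% of EL ciliated cells (1.81 to 3.37), neither above the 3.79% of EL T or NK cells (1.24 to 8.62). That T or NK share rests on 5 of 132 cells, so over each whole EL gate free RNA was not told apart from expression. The folds compare UMI totals. The EIS shares were 8.52% in epithelial cells (6.93 to 10.3) and 5.91% in ciliated cells (3.90 to 8.54), above the 3.23% of EIS T or NK cells (1.49 to 6.04), though the ciliated interval overlaps that one. Leaving out cells with markers of another lineage gave a ratio of -0.88 on the log2 scale in the epithelial gate, against -0.96 with them, and of -1.39 against -1.51 in ciliated cells. In T or NK cells the 12 EL UMIs and 15 EIS UMIs gave 56.5 and 27.2 CPM, with an interval of the EL over EIS ratio from 0.889 to 4.76.

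The EL epithelial VEGFA lay mostly in 1 kind of cell. The 840 EL epithelial cells with at least 2 UMIs of CYP26A1, an enzyme that degrades retinoic acid, had 71.7 CPM of VEGFA (66.5 to 77.2), against 12.3 CPM (10.4 to 14.3) in the other 2818, 9.03-fold higher relative to the median gene. They held 81.4% of the VEGFA UMIs of the EL epithelial gate and 42.9% of its total UMIs. They were also deeper, with a median of 11366 UMIs against 3825. After each cell was thinned to 1000 UMIs, VEGFA was found in 57 of 815 cells with CYP26A1 (6.99%, 5.34 to 8.97) and in 18 of 2707 cells without it (0.665%, 0.395 to 1.05). The last share lies below the 3.79% of EL T or NK cells (1.24 to 8.62), so T or NK cells were not the lowest EL cells for VEGFA. How much of each share is free RNA was not tested. The share with CYP26A1 lies above that of T or NK cells, but the T or NK interval, from 132 cells, overlaps it. Unthinned, VEGFA was seen in 13.4% of EL epithelial cells (median 4351 UMIs) and 5.52% of EL T or NK cells (median 1380 UMIs). The same contrast stood in shallow EL cells: 418 ungated cells with CYP26A1 had 53.6 CPM of VEGFA, against 17.9 CPM in the 3549 ungated cells without it. In EL ciliated cells the 203 with CYP26A1 had 44.98 CPM, against 23.6 CPM in the rest. No EIS epithelial cell had 2 CYP26A1 UMIs.

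The ratio between the libraries moved with these cells. When EL cells with CYP26A1 were left out, epithelial VEGFA stood at -2.58 log2 units in EL over EIS, against -0.96 with all cells. Those cells taken alone had 71.7 CPM, against 73.5 CPM in all EIS epithelial cells, with overlapping intervals. The median gene stood 0.73 log2 units higher in those cells than in EIS epithelial cells, and relative to it their VEGFA was 1.70-fold lower. With genes above 1% left out of the totals its log2 ratio was -1.07. The near equality thus holds on the CPM scale alone of the 3. The other 3 EL epithelial sub-gates, defined by PON3 or CLDN10, by JPH4 or JAKMIP1, and by OPTC, CCK or AQP3, had 13.7, 14.7 and 16.1 CPM of VEGFA.

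EIS epithelial VEGFA was uneven too. Cells with under 5% of their UMIs from ACP5 (uteroferrin, the iron-binding secretion of porcine uterine glands) and its partner UABP-2 had 198 CPM of VEGFA (180 to 218, 253 cells), and the 870 cells above that share had 39.5 CPM (35.3 to 44.2). That is 5.02-fold (4.32 to 5.83), or 2.30-fold relative to the median gene. In the second set SLPI, ACP5 and UABP-2 took up most of the total: SLPI 36.7% and the other 2 together 18.0%, against 1.62% and 0.654% in the first. Thinned to 1000 UMIs, 15.9% of the first set (11.5 to 21.2) and 6.45% of the second (4.89 to 8.31) had a VEGFA UMI, both above the 3.23% of EIS T or NK cells, though the interval of these overlaps that of the second set. The 338 EIS epithelial cells with AQP8 or IGFBP2 had 164 CPM, against 39.1 CPM in the other 785. The 54 cells with HAVCR1 had 152 CPM (101 to 220).

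**Figure D1:**
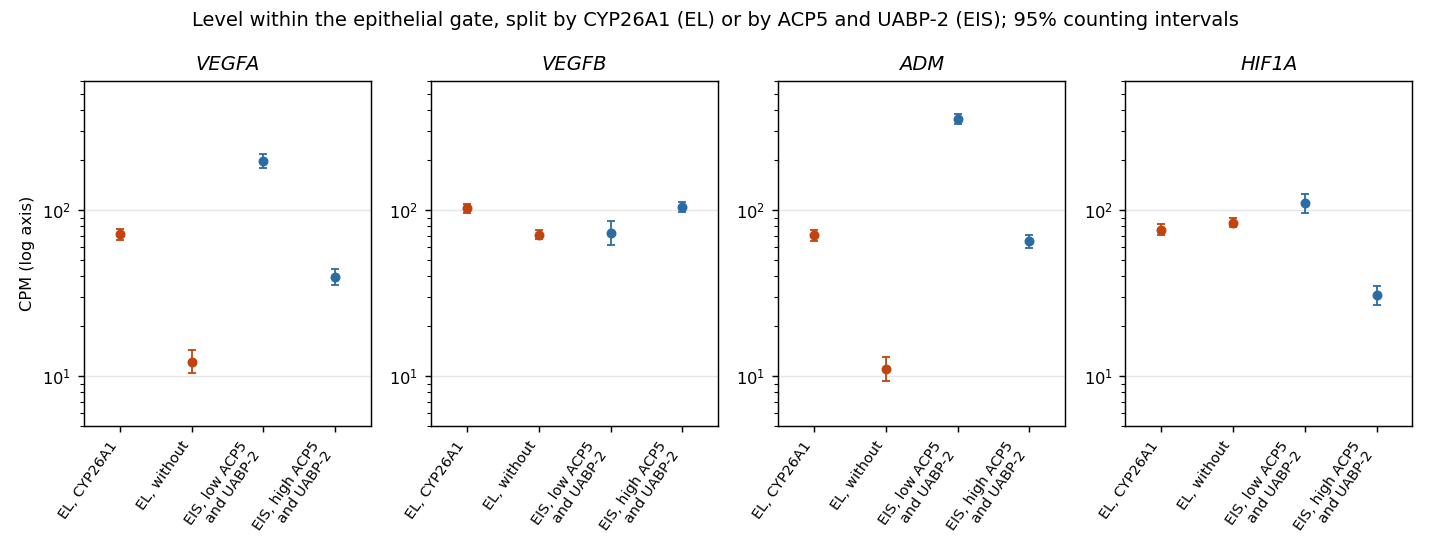
Levels of the 4 genes (CPM, log axis) in EL epithelial cells with and without CYP26A1 (orange) and in EIS epithelial cells low and high in ACP5 and UABP-2 (blue), with 95% counting intervals. VEGFA had 71.7 CPM with CYP26A1 and 12.3 CPM without it, and ADM 70.6 and 11.03 CPM, while HIF1A lay at 76.4 and 84.2 CPM.

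ADM showed the same split within the epithelial gate and a different one between gates. In the epithelial gate ADM had 36.5 CPM in EL (34.1 to 39.1) and 127 CPM in EIS (120 to 134), 3.47-fold lower in EL (3.17 to 3.79) and 7.87-fold lower relative to the median gene. EL cells with CYP26A1 had 70.6 CPM of ADM (65.4 to 76.0), against 11.03 CPM (9.30 to 13.0) without it, 9.88-fold higher relative to the median gene, and held 82.8% of the EL epithelial ADM UMIs. Thinned to 1000 UMIs, ADM was found in 6.38% of the cells with CYP26A1 (4.80 to 8.28) and in 0.924% of those without it (0.599 to 1.36). The share of EL T or NK cells was 2.27% (0.471 to 6.50), from 3 of 132 cells. Its interval overlaps those of the cells with and without CYP26A1, and how much of each share is free RNA was not tested. Without the CYP26A1 cells ADM was 11.5-fold lower in EL, and with only those cells on the EL side 1.79-fold lower, or 2.98-fold lower relative to the median gene. In EIS, cells low in ACP5 and UABP-2 had 353 CPM (328 to 380) and cells high in them 65.0 CPM (59.4 to 70.9), 5.44-fold, or 2.50-fold relative to the median gene. Their thinned shares were 16.3% (11.9 to 21.6) and 6.45% (4.89 to 8.31), against 1.08% of EIS T or NK cells (0.222 to 3.11).

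In ciliated cells ADM was high in both libraries and did not differ beyond counting error: 2241 UMIs in EL gave 245 CPM (235 to 256) and 689 UMIs in EIS gave 238 CPM (221 to 257), a ratio of 1.03 (0.945 to 1.12). The sign of this ratio changed under 8 of the 15 other ways of processing. The EL ciliated gate held 67.3% of all ADM UMIs of the EL library on 23.7% of its UMIs. ADM was concentrated in few ciliated cells. In EL, 53 cells (2.75%) with 10 or more ADM UMIs held 45.2% of the ciliated ADM UMIs, 71.2% of cells had none, and 1 cell had 48. In EIS, 17 ciliated cells (3.85%) with 10 or more held 38.2%, and 56.1% had none. The EIS epithelial gate was alike: 33 cells (2.94%) with 10 or more held 49.6% of its ADM UMIs. In the EL epithelial gate 7 such cells (0.191%) held 9.10%. VEGFB, with 2472 UMIs in EL ciliated cells, was spread more evenly: 5 cells (0.260%) with 10 or more UMIs held 2.14%. In summed UMIs, ciliated cells with CYP26A1, unlike epithelial ones, had less ADM. It had 137 CPM in 203 EL cells with CYP26A1 and 262 CPM in 1723 without it, 1.91-fold lower with it (1.63 to 2.26). After thinning, ADM was found in 23 of 183 cells with CYP26A1, a share close to the 230 of all 1678 EL ciliated cells. Cells with CYP26A1 were also shallower, with a median of 2018 UMIs against 4743. Split by depth alone, EL ciliated ADM was 264 CPM above the median depth and 171 CPM at or below it. The parts of depth and of the few cells with many ADM UMIs were not tested. The thinned share of ciliated cells with ADM was 13.7% in EL (12.1 to 15.4) and 16.8% in EIS (13.4 to 20.6), and the unthinned share 28.8% in EL and 43.9% in EIS at median depths of 4521 and 6033 UMIs.

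**Figure D2:**
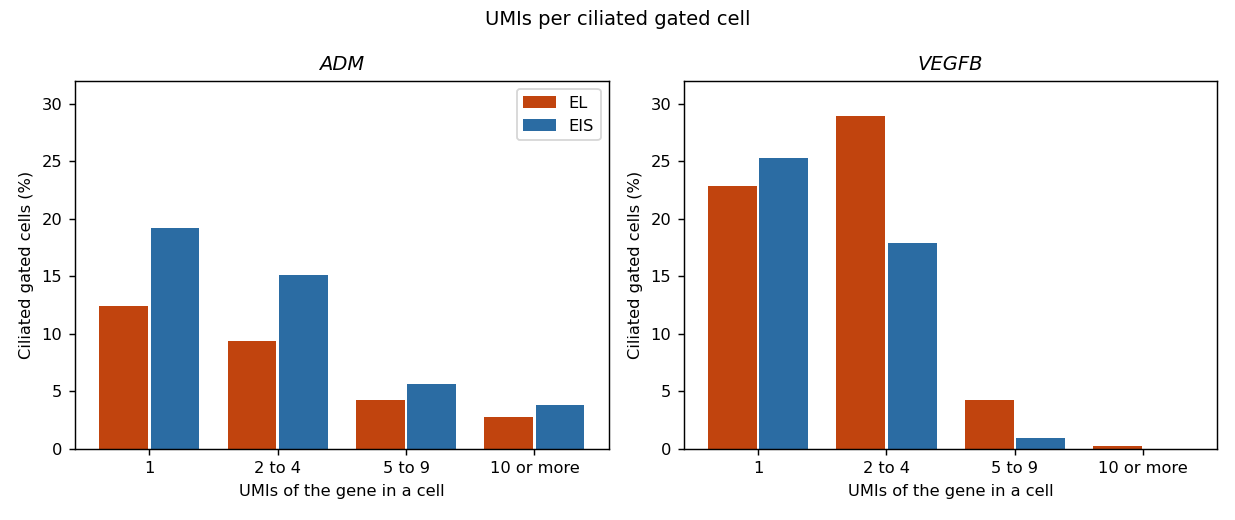
Share of ciliated gated cells (%) by the number of ADM (left) and VEGFB (right) UMIs in the cell, EL in orange and EIS in blue. Cells with 10 or more ADM UMIs made up 2.75% of EL and 3.85% of EIS cells, whereas for VEGFB they made up 0.260% of EL and 0% of EIS cells.

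In the other classes ADM rested on fewer UMIs. The 52 EL stromal cells had 29 ADM UMIs, or 340 CPM (228 to 489), of which 10 lay in 1 cell. VEGFA had 0 of their 85245 UMIs, which allows up to 35.2 CPM. In EIS stromal cells ADM had 103 CPM (94.2 to 112) and VEGFA 73.4 CPM (66.2 to 81.2). The 21 EL lymphatic endothelial cells had 282 CPM of ADM (164 to 451), 9 of 17 UMIs in 1 cell, and the 52 EIS ones 154 CPM (117 to 199). ADM was lowest in T or NK cells, at 14.1 CPM in EL (3 UMIs) and 9.05 CPM in EIS (5 UMIs). Among EIS cells of the macrophage, monocyte or dendritic gate, the 96 with LYVE1 or MRC1, marks of resident macrophages, had 29.3 CPM of ADM (17.1 to 46.9), against 152 CPM (124 to 186) in the other 169, 5.20-fold lower (3.09 to 9.30). Their VEGFA levels were 87.9 and 92.7 CPM. The 96 cells were deeper, holding 47.7% of the gate's UMIs. Split by depth alone, ADM in this gate was 50.6 CPM (37.3 to 67.0) above the median depth and 247 CPM (191 to 314) at or below it. The part of depth in the split by LYVE1 or MRC1 was not tested.

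VEGFB was the gene whose direction differed between the epithelial gates. In ciliated cells it had 270 CPM in EL (260 to 281) and 112 CPM in EIS (100 to 125), 2.41-fold higher in EL (2.14 to 2.71), and 95.4% of the 12952 genes measured there had a smaller EL over EIS ratio. The median gene of that gate stood at 0.13 log2 units. In the epithelial gate VEGFB had 84.8 CPM in EL (81.1 to 88.7) and 97.6 CPM in EIS (91.6 to 104), 1.15-fold lower in EL (1.06 to 1.24) and 2.62-fold lower relative to the median gene. The difference between these 2 ratios was not tested. Within EL, VEGFB had 103 CPM in cells with CYP26A1 and 71.2 CPM in cells without it, 1.45-fold higher (1.32 to 1.58), or 2.23-fold relative to the median gene, above 84.2% of genes. In EIS it had 73.2 CPM (62.1 to 85.7) in cells low in ACP5 and UABP-2 and 104 CPM (97.2 to 112) in cells high in them, the reverse of VEGFA and ADM, and 0.323-fold relative to the median gene. Ciliated cells held 49.4% of all VEGFB UMIs of the EL library.

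HIF1A was higher in EL epithelial cells on the CPM scale and lower relative to the median gene and on the TMM scale. It had 80.9 CPM in EL (77.2 to 84.6) and 47.8 CPM in EIS (43.5 to 52.3), 1.69-fold higher in EL (1.53 to 1.88), but -0.42 log2 units relative to the median gene, and 33.2% of 14408 genes had a smaller ratio. With TMM factors, which assume that most genes do not differ, the log2 ratio was -0.27, and after genes above 1% were left out of the totals it was -0.32. Within EL, HIF1A lacked the wide split of VEGFA and ADM: it had 76.4 CPM with CYP26A1 and 84.2 CPM without it, 0.907-fold (0.825 to 0.996), but 1.40-fold higher with it relative to the median gene. In EIS it followed them in summed UMIs only. Cells low in ACP5 and UABP-2 had 111 CPM (96.8 to 126) and cells high in them 30.7 CPM (26.9 to 34.8). That is 3.60-fold (2.99 to 4.33), or 1.65-fold relative to the median gene. After thinning, HIF1A was found in 52 of the 1092 EIS epithelial cells and in 39 of the 853 high cells. For VEGFA these numbers were 93 and 55, and for ADM 94 and 55. HIF1A thus lacked their wide split in thinned cells. Ciliated cells had 73.1 CPM in EL and 64.3 CPM in EIS, a ratio of 1.14 with an interval from 0.965 to 1.34. T or NK cells had 75.3 CPM in EL and 77.8 CPM in EIS, a ratio of 0.968 (0.509 to 1.75).

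**Figure D3:**
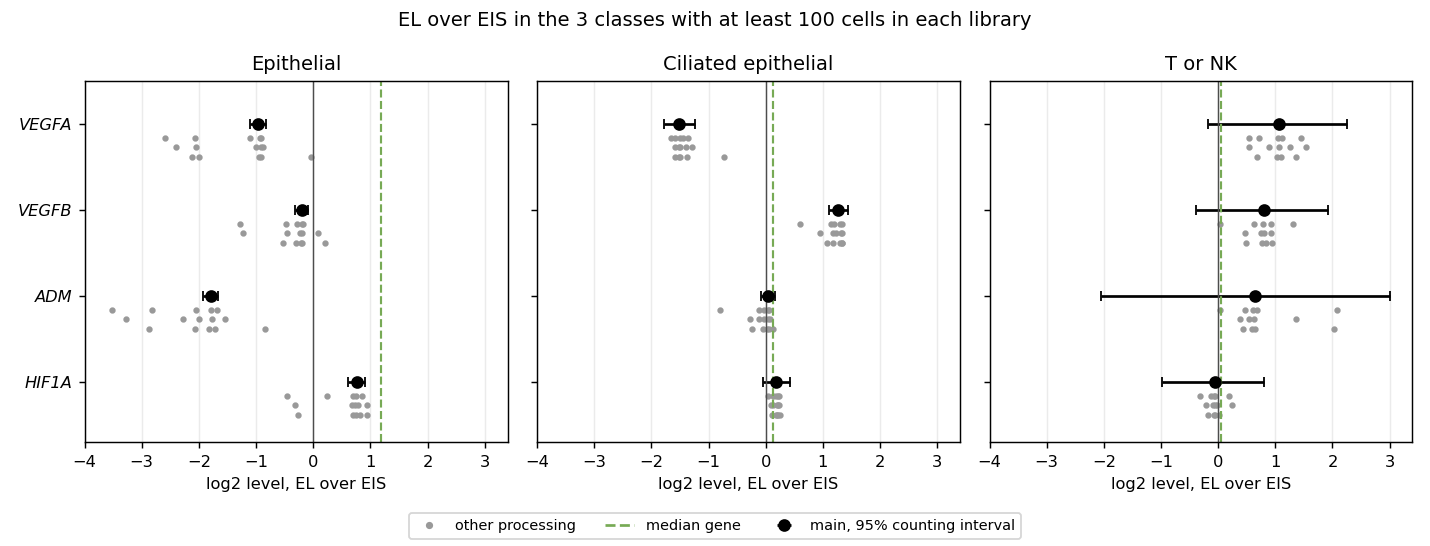
EL over EIS ratio (log2) of the 4 genes in the 3 gates compared: black points with 95% counting intervals are the reported values, grey points the other ways of processing, and the dashed line the median gene. VEGFA and ADM lie left of 0 in the epithelial gate in all of them, HIF1A falls on both sides, and VEGFB lies right of 0 in ciliated cells in all of them.

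Counted over the 4 genes, 1 was lower in EL by over 2-fold in the epithelial gate, where 9.43% of all measured genes were, and 0 were higher, where 58% were. Relative to the median gene 3 were lower, against 20% of all genes, and 0 higher, against 16.6%. With TMM factors 19.7% of epithelial genes were higher and 17.8% lower, and with genes above 1% left out 18.6% and 18.5%. In ciliated cells 1 gene was higher (VEGFB) and 1 lower (VEGFA), against 6.72% and 7.77% of all genes. In T or NK cells VEGFA alone passed 2-fold, higher in EL where 5.33% of genes were, and all 4 intervals spanned 1. Lower in EL were 0 of the 4 genes and 5.7% of all genes. Relative to the median gene the ciliated counts stayed 1 and 1, against 5.58% and 8.76% of all genes, and the T or NK counts were 0 and 0, against 4.45% and 6.19%.

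Outside the epithelial gates the order of classes was specific to each gene. In EIS, VEGFA was highest in the ungated cells, at 160 CPM (149 to 172), while macrophage-type cells (90.4 CPM), trophoblast cells (84.3 CPM), ciliated cells (75.0 CPM), epithelial cells (73.5 CPM) and stromal cells (73.4 CPM) had overlapping intervals. Vascular endothelial cells (44.7 CPM), lymphatic endothelial cells (36.5 CPM), T or NK cells (27.2 CPM) and B or plasma cells (40.9 CPM from 3 UMIs) formed the low end, again with overlapping intervals. The 24 neutrophils had 4 VEGFA UMIs, all in 1 cell, and 11 ADM UMIs, 9 of them in 1 cell. The ungated EIS cells high in ACP5 and UABP-2 (157 CPM) and low in them (166 CPM) did not differ beyond counting error. In EL the 59 macrophage-type cells had the most VEGFA, 116 CPM (73.8 to 175) from 23 UMIs, 7 of them in 1 cell. At 1000 UMIs a cell, the share of EIS cells with VEGFA was 9.51% in ungated cells (7.96 to 11.2), which thus did not stand out. It was 8.59% in stroma, 7.47% in trophoblast cells and 10.5% in macrophage-type cells, against 2.78% in vascular endothelium and 3.23% in T or NK cells. In EIS 76.5% of trophoblast cells, 39.6% of stromal cells and 86.5% of lymphatic endothelial cells carried 3 markers of another lineage.

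HIF1A was highest in EIS B or plasma cells (164 CPM, 84.5 to 286, 12 UMIs), vascular endothelium (141 CPM, 118 to 167) and lymphatic endothelium (131 CPM, 96.9 to 172). It was next highest in trophoblast cells (90.0 CPM, 83.4 to 97.0), and lowest among classes with 20 or more HIF1A UMIs in the epithelial gate. Within EIS stroma the 218 cells with MEST or HAND1, genes of embryonic mesenchyme, had 102 CPM of HIF1A (89.5 to 117) and 49.6 CPM of VEGFA (40.8 to 59.8), against 65.3 CPM (56.4 to 75.2) and 91.2 CPM (80.7 to 103) in the other 1570. The 218 cells were deeper, with a median of 5776.5 UMIs against 1471.5. Split by depth alone, stromal VEGFA was 69.4 CPM (61.7 to 77.8) above the median depth and 92.2 CPM (73.6 to 114) at or below it. HIF1A was 83.0 CPM (74.6 to 92.1) and 72.7 CPM (56.3 to 92.3). Thinned alike, 19 of 210 such cells and 115 of all 1338 EIS stromal cells had VEGFA, and 25 and 95 had HIF1A. The part of depth in this split was not tested. In EL, macrophage-type cells had 157 CPM of HIF1A (107 to 223). VEGFB in EIS had its lowest levels in neutrophils (0 of 37050 UMIs, which allows up to 81.0 CPM) and B or plasma cells (27.3 CPM, 2 UMIs). Its highest were in ciliated cells (112 CPM, 100 to 125) and ungated cells (112 CPM, 103 to 122). The intervals of stromal cells (99.1 CPM, 90.7 to 108) and epithelial cells (97.6 CPM, 91.6 to 104) overlapped both. In EL the class next to ciliated cells was stroma, whose 13 UMIs gave 153 CPM (81.2 to 261).

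**Figure D4:**
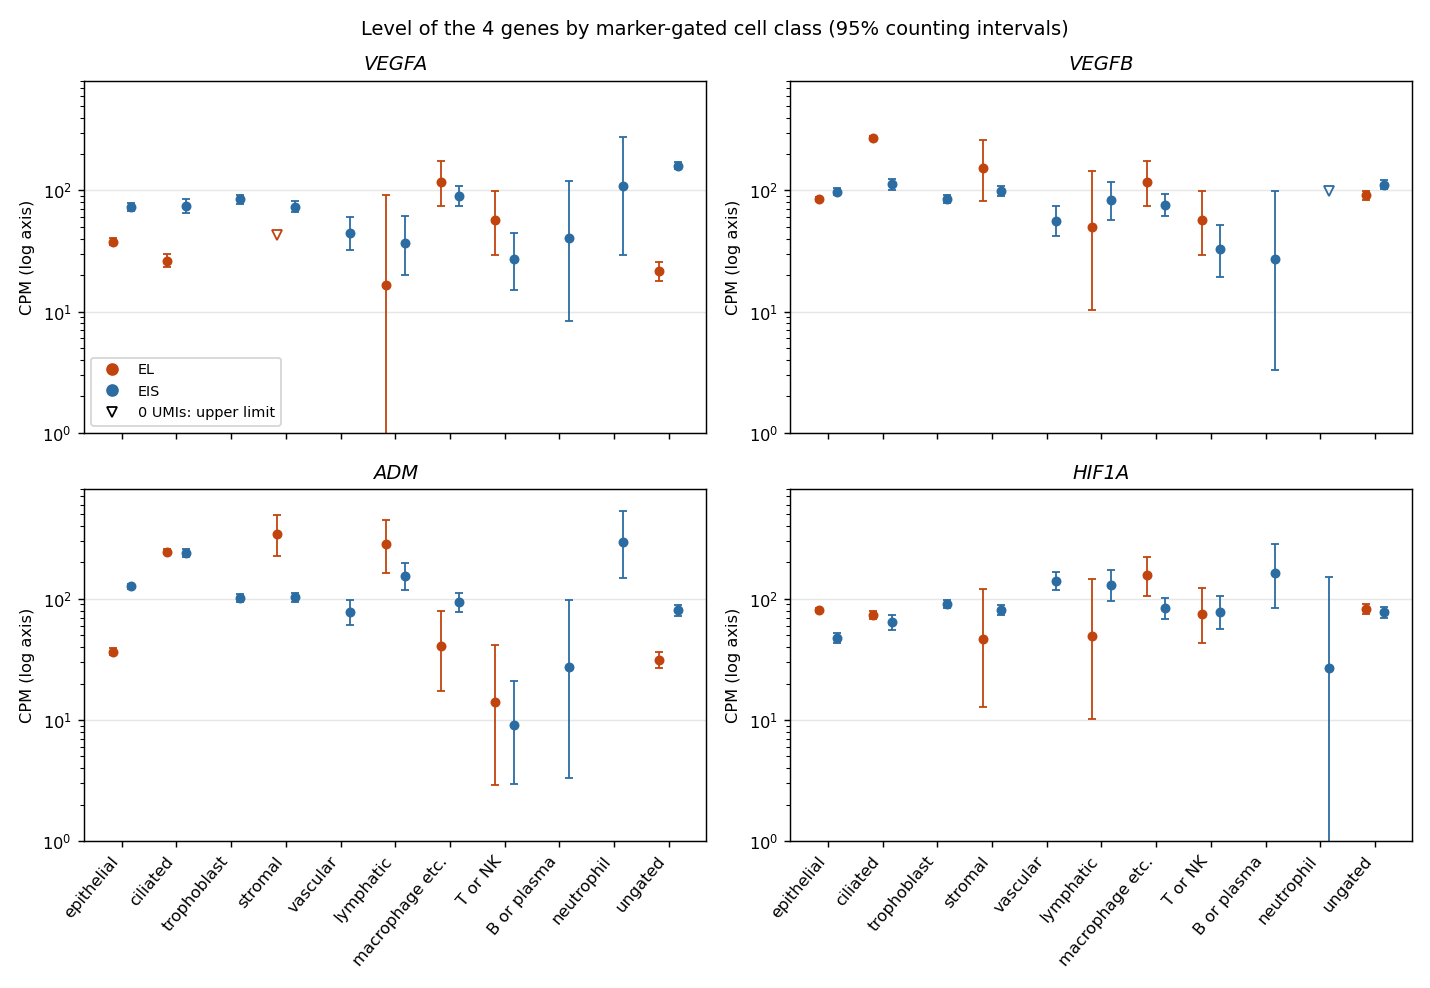
Level of each gene (CPM, log axis) in every class with at least 20 cells, EL in orange left of EIS in blue, with 95% counting intervals cut at 1 and open triangles for the upper limit where no UMI was seen. The EL ciliated point stands apart for VEGFB, and the T or NK points are the lowest for ADM.

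Receptors of the ligands were found mainly in endothelium. In EIS vascular endothelial cells the VEGF receptors KDR and FLT1 had 351 CPM (314 to 391) and 225 CPM (195 to 257), the co-receptor NRP1 500 CPM (456 to 548), and the adrenomedullin receptor CALCRL 748 CPM (694 to 806) with its partner RAMP2 at 3226 CPM (3112 to 3343). None of these genes served to gate the cells, and the 13 EL vascular cells were too few for a level. In lymphatic endothelium KDR had 249 CPM in EL (139 to 410) and 141 CPM in EIS (106 to 184), CALCRL 282 and 224 CPM, and RAMP2 2669 and 2297 CPM, while FLT1 had no UMI in EL or EIS. NRP2, a co-receptor of lymphatic vessels, had 431 CPM in EL (282 to 631) and 232 CPM in EIS (187 to 286) there. VEGFC, another ligand of the family, was highest in EIS vascular endothelium at 132 CPM (110 to 157). Of the 5 VEGF receptor genes listed 4 are named in the files, and the 3 that could be compared in the epithelial gate, KDR, NRP1 and NRP2, were all lower in EL by over 2-fold, as 9.43% of all genes were, with 9, 6 and 3 UMIs there and 58, 82 and 203 in EIS. EIS epithelial cells also carried more stromal marker RNA, as given above, and the part of that in the receptor values was not tested.

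RAMP1, the RAMP partner that with CALCRL forms a receptor for the related peptide CGRP, was higher in EL epithelium. It had 230 CPM in EL (224 to 236) and 64.9 CPM in EIS (60.0 to 70.1) in the epithelial gate, 3.54-fold higher in EL (3.26 to 3.85) but only 0.64 log2 units above the median gene. RAMP1 had 65.7 CPM in EL and 12.4 CPM in EIS in ciliated cells, 5.28-fold higher (3.77 to 7.62) and 2.27 log2 units above the median gene. It ran opposite to ADM within the epithelial cells of each library. EL cells with CYP26A1 had 18.6 CPM of RAMP1 and those without it 388 CPM, 20.9-fold lower with it. EIS cells low in ACP5 and UABP-2 had 6.61 CPM against 80.8 CPM in cells high in them, 12.2-fold lower. ACKR3 of the same receptor list went with ADM in EL, at 66.7 CPM with CYP26A1 and 3.14 CPM without it. In EIS it ran opposite, at 15.1 CPM in low and 22.9 CPM in high cells. Of the list's 4 genes measured in the EL split, 1 was higher and 3 lower by over 2-fold with CYP26A1. Of all genes 10.5% and 37.2% were. CALCRL had 1 UMI in EL epithelial cells and 42 in EIS ones. RAMP2 in ciliated cells had 58.9 CPM in EL and 82.9 CPM in EIS, 1.41-fold lower in EL (1.21 to 1.64). Among the 5 measured genes of the adrenomedullin receptor list, 2 were higher and 2 lower in EL epithelial cells by over 2-fold, where 58% and 9.43% of all genes were, with a median log2 ratio of 0.52 against 1.18 for all genes. Of the 5, 1 was higher and 2 were lower relative to the median gene, against 16.6% and 20% of all genes.

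**Figure D5:**
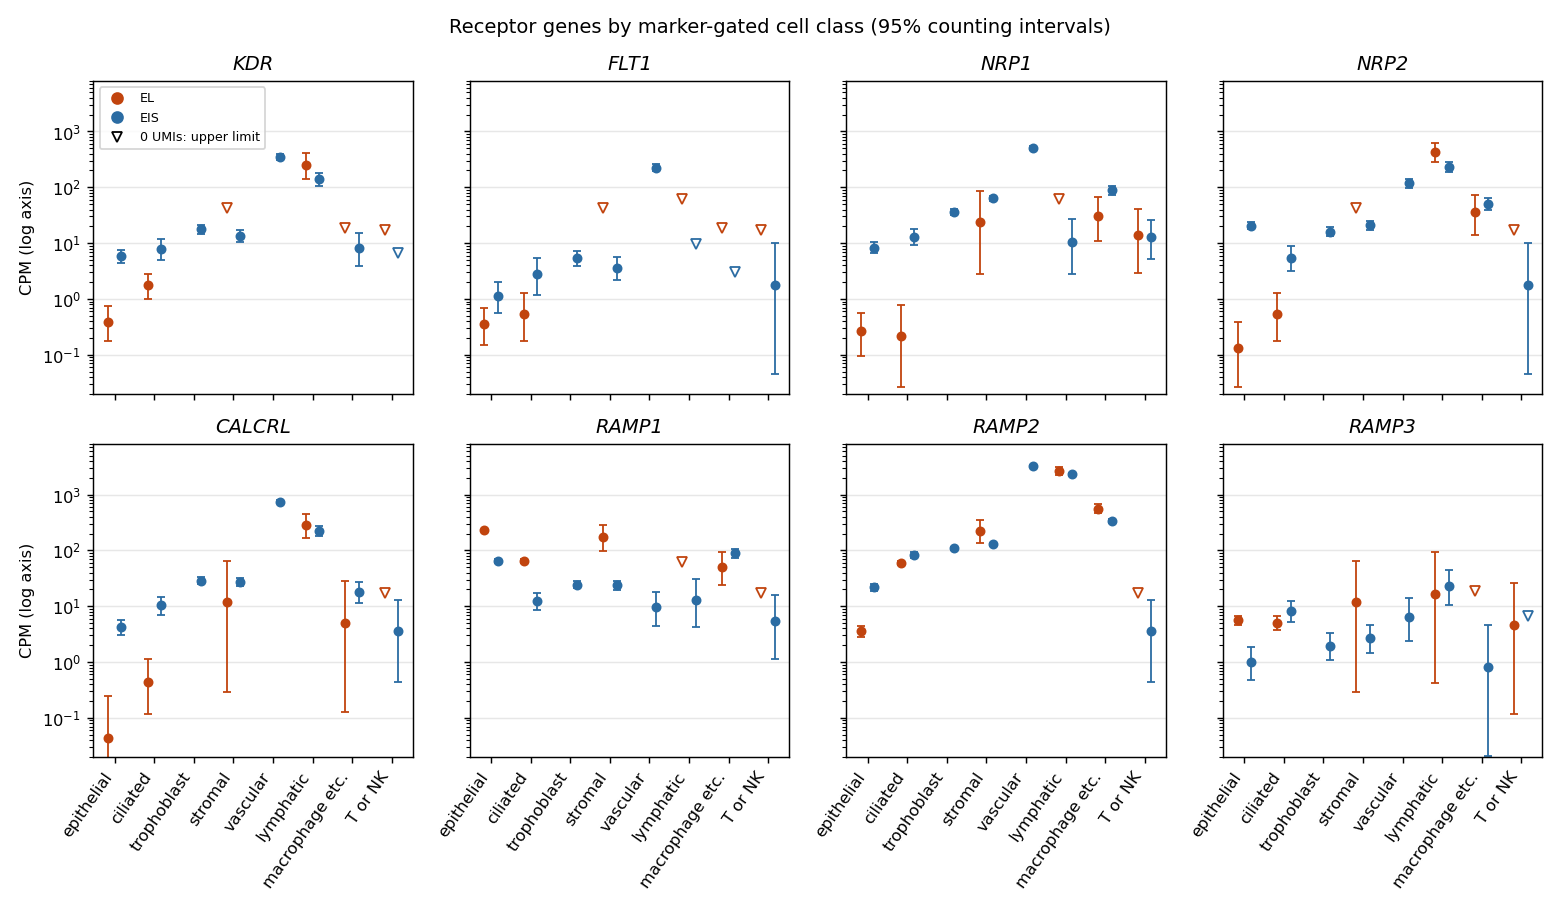
Level of receptor genes for VEGF (top) and adrenomedullin (bottom) in CPM on a log axis, by class, EL in orange left of EIS in blue, with 95% counting intervals cut at 0.02 and open triangles for upper limits at 0 UMIs. KDR, FLT1, NRP1 and CALCRL peak in EIS vascular endothelium, RAMP2 in vascular and lymphatic endothelium, and RAMP1 in EL epithelial cells.

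Of 26 listed HIF target genes, 21 are named in the files and 20 could be measured in both epithelial gates. In the epithelial gate 6 were higher and 3 lower in EL by over 2-fold, against 58% and 9.43% of all genes, with a median log2 ratio of 0.75 against 1.18 for all 14408 genes. Relative to the median gene 2 were higher and 7 lower, against 16.6% and 20% of all genes. HK2, which starts glycolysis, had 69.5 CPM in EL and 1.21 CPM in EIS, 57.4-fold higher (32.7 to 111) and 4.66 log2 units above the median gene. The mitophagy gene BNIP3L had 271 CPM in EL and 29.6 CPM in EIS, 9.18-fold higher (8.16 to 10.4) and 2.01 log2 units above the median gene. The glucose transporter SLC2A3 had 54.3 CPM in EL and 20.7 CPM in EIS, and the glycolytic TPI1 290 and 122 CPM, which are 2.62-fold and 2.38-fold higher in EL but within 0.21 and 0.07 log2 units of the median gene. These targets were named for their level as well as their ratio, and all were higher in EL. The 3 lower by over 2-fold had low levels. They were NDRG1 (1.23 CPM in EL and 24.0 CPM in EIS), LOX (1.05 and 11.9 CPM) and ANGPTL4 (1.40 and 4.95 CPM). PFKFB3, with 13.2 and 24.0 CPM, was 1.82-fold lower.

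In ciliated cells 1 target was higher (HK2) and 4 lower in EL by over 2-fold, against 6.72% and 7.77% of all genes, with a median log2 ratio of -0.22 against 0.13 for all genes. The glycolytic LDHA, PGK1 and ENO1 were lower in EL by 1.73-fold, 1.57-fold and 1.47-fold, and ANKRD37 had 161 CPM in EL and 99.9 CPM in EIS, 1.61-fold higher (1.42 to 1.83). In T or NK cells 0 of 11 measured targets passed 2-fold, where 5.33% of all genes were higher and 5.7% lower, so nothing about the targets is read from that count. There BNIP3L, BNIP3, LDHA and PGK1 had intervals of the ratio that spanned 1.

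The targets were also read within EL, where library and sow are shared; the split by CYP26A1 is an added comparison. Of 20 measured targets 8 were higher and 2 lower by over 2-fold in epithelial cells with CYP26A1, against 10.5% and 37.2% of 13465 genes, and the list median was 0.52 against -0.63. Relative to the median gene 11 were higher and 2 lower, against 18.5% and 22.5% of all genes. SLC2A3 had 119 CPM with CYP26A1 and 5.82 CPM without it, 20.4-fold (16.2 to 26.1), PFKFB3 25.5 and 3.98 CPM, HK2 127 and 26.5 CPM, P4HA2 83.5 and 21.7 CPM, and LDHA 153 and 45.9 CPM. PGK1 (59.0 and 63.4 CPM) and GAPDH (1198 and 1594 CPM) were not higher on the CPM scale. Relative to the median gene they were 1.44-fold and 1.16-fold higher. In EIS, 12 of 19 targets were higher and 1 lower in cells low in ACP5 and UABP-2 than in cells high in them, against 55.8% and 2.97% of 10946 genes, with a median of 1.43 against 1.12. Relative to the median gene 5 were higher and 1 lower, against 13.8% and 12.5%. SLC2A3 had 73.7 CPM in the low cells and 6.29 CPM in the high ones, 11.7-fold (8.45 to 16.5), while ANKRD37, with 14.6 and 59.7 CPM, ran the other way. SLC2A3, a transporter of glucose into cells, thus stood with VEGFA and ADM in both splits. These genes were picked after their values were seen.

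Of the HIF partners and regulators, ARNT, VHL and HIF1AN could be measured in the epithelial gates. VHL, which marks HIF1A protein for breakdown, had 13.9 CPM in EL and 6.86 CPM in EIS epithelial cells, and HIF1AN, which blocks its activity, 27.7 and 10.9 CPM, 2.03-fold and 2.54-fold higher in EL but -0.16 and 0.16 log2 units from the median gene. In ciliated cells all 3 intervals spanned 1.

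Few cells had both VEGFA and ADM after thinning. Thinned to 1000 UMIs, 5 of 3522 EL epithelial cells had both, where 1.64 would be met if the genes were unrelated, and 13 of 1092 EIS epithelial cells, where 8.01 would be. Within EL cells with CYP26A1 the numbers were 5 and 3.64. In ciliated cells they were 8 and 5.76 in EL, and 1 and 4.37 in EIS. At such counts no association is read. Over the 16 class and library sums of at least 20 cells, which share libraries, VEGFA and ADM had a Pearson r of -0.26 on log2(CPM + 1), and HIF1A and ADM -0.51. Among 7651 named genes the pattern of VEGFA was most like that of HMGA1 (r = 0.92), GM2A, TFRC, CLCN7 and CERS4. VEGFB was most like MRPL27 (r = 0.97), VMA21, ROMO1, MESD and TMEM258. ADM was most like IDS (r = 0.84), PLXNA1, SPATA6, CEBPD and ECHDC2, and HIF1A most like CLSPN (r = 0.86), MCM3, NOA1, PIM3 and MCM2.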

How the data were processed

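Both libraries were 10x Genomics 3' single-cell libraries of digested endometrium. The deposited values are raw counts of UMIs for each gene in each barcode, which were not normalized. The matrices were made with cellranger 6.1.0 per the file headers, while the submitters' processing notes name Cell Ranger 2.1.1, and no genome build is named in the labels or headers. Among the 26881 features, 10753 carry a symbol, and rows with the same name were summed to 26828.

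Cells with at least 500 UMIs and 300 genes were kept. Scrublet scores (scanpy 1.11.5) were used to remove the highest 0.8% per 1000 barcodes as doublets, which were 933 barcodes in EL and 601 in EIS. A cell joined the class with the largest share of measured markers detected, given at least 3, a cell with 3 ciliated or trophoblast markers going there rather than to epithelium, and ties were left ungated. Of 145 listed markers in 14 classes 88 carry a symbol in the files. Mast, mesothelial and erythroid cells had under 3 measured markers and were not gated. The symbol PAG1, a trophoblast marker here, can also denote an unrelated adaptor protein.

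UMIs were summed per class and library and scaled to CPM. Levels have exact Poisson intervals, shares Clopper-Pearson intervals and ratios exact conditional binomial intervals, all at 95%. Beside a count of 0 the limit is 3 UMIs of the total. PCR and capture errors are not covered. Genes with at least 20 UMIs over both sides of a comparison were measured, and a called gene differed by over 2-fold, with 3 UMIs in place of 0. Sub-gates needed at least 2 UMIs over their genes, or at least 5% of UMIs for ACP5 and UABP-2. Named genes were the 4 genes, up to 4 members per list and gate with at least 50 CPM by size of ratio, receptors by class, and the 5 genes most correlated with each. The epithelial HIF targets named as lower in EL, and ACKR3, were added outside this rule. The genes, gates, lists and sub-gates were chosen with earlier results of these data known, and sub-gates by AQP8 or IGFBP2, MEST or HAND1, and LYVE1 or MRC1, and those of ciliated and ungated cells, were added after their values could be seen. TMM factors came from edgeR 4.0.16 in R 4.3.3, and other steps from Python 3.11.15 with numpy 2.4.6, scipy 1.17.1, pandas 2.3.3 and matplotlib 3.10.9. The ratio steps were tested on simulated data.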

Additional observations from a re-analysis of the deposited data

Results flagged for a closer look

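VEGFB in EL over EIS stood at 1.27 log2 units in ciliated cells and at -0.20 in the epithelial gate, opposite signs in 2 cell classes of the same libraries. With 1 library in each group the difference itself was not tested. VEGFB was higher in EL ciliated cells under all 15 alternatives.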

How the results depend on the processing

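Of 174 recomputed ratios 134 stayed within the counting interval of the reported ratio, and of 20 recomputed list counts 15 stayed within 1.5 times. Of the ratios 158 kept their sign and 16 changed it; where no other reason is given the cause was not tested. All ratios are log2 EL over EIS. Of the sign changes 2 were of epithelial VEGFB and 3 of epithelial HIF1A, whose reported intervals exclude 0. The others were 8 of ciliated ADM (range -0.80 to 0.13) and 3 of T or NK HIF1A (-0.31 to 0.24), whose reported intervals span 0. TMM factors moved the median epithelial gene to 0.15 and leaving genes above 1% out of the totals moved it to 0.10, so every epithelial ratio moved with it. With TMM, VEGFA was -1.99, VEGFB -1.23, ADM -2.82 and HIF1A -0.27. Without genes above 1% they were -2.05, -1.29, -2.88 and -0.32. Epithelial VEGFA was -1.11 with 2 markers, -2.06 thinned to 1000 UMIs and -2.12 as a mean over cells. VEGFB was -0.52 thinned and -0.47 as a mean over cells. ADM was -2.07 with 4 markers, -1.55 without cells of mixed lineage, -2.04 after removal of 10% free RNA, -2.27 thinned and -2.01 as a mean over cells. HIF1A was 0.94 with 2 markers, 0.24 with 4 and 0.93 without cells of mixed lineage. In ciliated cells VEGFB was 1.07 with 2 markers and 0.95 thinned, and ADM -0.28 with 2 markers, -0.23 without cells of mixed lineage and -0.11 as a mean over cells.

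The next 3 alternatives, and the relative values of the cells with CYP26A1 against EIS, were chosen after seeing the data, as was leaving out the cell with most UMIs of the gene, which moved none. Without cells with CYP26A1, epithelial VEGFA was -2.58, VEGFB -0.46 and ADM -3.52. With those cells alone in EL they were -0.036, 0.076 and -0.84, and in ciliated cells VEGFA was -0.74, VEGFB 0.60 and ADM -0.80. Without cells high in ACP5 and UABP-2, epithelial VEGFA was -2.39, VEGFB 0.21, ADM -3.27 and HIF1A -0.45, and ciliated ADM -0.11. Epithelial HIF targets higher and lower by 2-fold numbered 2 and 6 with TMM factors, and higher adrenomedullin receptor genes 1. With a minimum of 1 UMI, T or NK targets numbered 3 higher and 1 lower. In T or NK cells VEGFB with 1000 genes a cell, ADM after free RNA removal and all 4 genes in cells with CYP26A1 gave no value.

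No paired analysis was possible because each group is 1 sow and 1 library. No replicate was left out for the same reason. Depth limits the T or NK values, which rest on 3 to 43 UMIs per library, most among the 3 gates compared, and several other classes rest on fewer UMIs.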
